A study of Mus musculus with 12 samples.

Results

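The nuclear-encoded genes of oxidative phosphorylation were taken from a gene-level RNA-seq table of mouse liver as every protein-coding gene whose symbol begins with Nduf, Sdha, Sdhb, Sdhc, Sdhd, Uqcr, Cox4 to Cox8 or Atp5. The rule found 97 of the 50686 genes in the table. They comprise 7 core and 29 accessory subunits of complex I, 4 subunits of complex II, 8 of complex III, 20 of complex IV, 16 of complex V, and 13 assembly and other factors. The factors are Ndufaf1 to Ndufaf8, Sdhaf1 to Sdhaf4 and Atp5s. Ndufa4 and Ndufa4l2 carry a complex I symbol but are counted here with complex IV, the complex to which the Ndufa4 protein belongs. Cytochrome c1 (Cyc1) does not carry one of the prefixes and is not a member. Of the 97 genes, 92 had enough counts to be tested.

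Livers came from FVB/N mice of 6 to 8 weeks. The animals were given a small interfering RNA (siRNA), packed in lipid nanoparticles, into the tail vein. The dose was 0.5 mg/kg and was injected once in 5 days. The siRNA was directed either at Eif3m, which encodes a subunit of the translation initiation factor eIF3, or at luciferase as the control. Livers were taken at day 9 or day 13, which with the 2 siRNAs gave 4 groups, each of 3 libraries. All groups had thus received nanoparticles and an siRNA, and no untreated liver was analysed here. The RNA came from ground whole liver, so that fewer cells of a type and less RNA per cell cannot be told apart, and the labels do not say whether replicates are different animals. P-values therefore measure the spread among these libraries, which may be technical.

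Oxidative phosphorylation couples the transfer of electrons along complexes I to IV of the inner mitochondrial membrane to the pumping of protons, and complex V uses the proton gradient to make ATP. Most subunits are encoded in the nucleus, translated in the cytosol and imported, whereas a small set of core subunits of complexes I, III, IV and V is encoded by mitochondrial DNA, so that each of those complexes is built from the products of both genomes with the help of assembly factors. Hepatocytes are rich in mitochondria and use this ATP for gluconeogenesis, urea synthesis and protein secretion.

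Depth and the state of the libraries bear on every value that follows. Total counts were 38783564 to 54538581 in the day 9 libraries and 7650269 to 9630027 in the day 13 libraries, so day and depth cannot be told apart and groups are compared only within a day. Eif3m itself was at 44.8 ± 0.684 CPM (counts per 1000000 after scaling; SD, n = 3) in day 9 controls and 4.79 ± 0.0859 CPM with its siRNA, and at 36.4 ± 4.56 and 2.37 ± 0.167 CPM at day 13. The groups did not overlap on either day (exact permutation test, two-sided p = 0.1, the smallest that 3 against 3 can give). Within the day 13 groups, control replicate 3 and Eif3m siRNA replicate 2 stood apart on the third principal component, at -52.0 and -36.9, against 18.0 and 15.3 for the other controls and 37.6 and 4.68 for the other siRNA libraries. Among liver cell markers, all 10 hepatocyte genes were detected, with a summed level of 116777 to 124462 CPM in day 9 controls, 98610 to 104483 CPM with Eif3m siRNA at day 9, 178064 to 202494 CPM in day 13 controls and 111145 to 170322 CPM with siRNA at day 13. Of these 10 genes 1 was called higher (background 5.94%) and 1 lower (6.84%) at day 9, and 2 (12.8%) and 2 (10.9%) at day 13. Their median log2 fold change was 0.19 at day 9 and 0.12 at day 13, opposite in direction to the sums. Albumin, 1 of the 10, alone held 8.53% to 9.12% of counts in day 9 controls and 7.05% to 7.40% with siRNA. Its day 13 shares were 14.4% to 14.7% in controls and 8.29% to 11.7% with siRNA. Of 12 Kupffer cell markers 5 were called lower at day 9 (background 6.84%) and 10 at day 13 (background 10.9%), with summed levels of 383 to 466 against 290 to 350 CPM and of 377 to 468 against 158 to 250 CPM. Summed markers of monocytes and infiltrating macrophages were 56.2 to 71.0 CPM in controls against 128 to 146 CPM with siRNA at day 9, and 121 to 169 against 75.3 to 101 CPM at day 13. Summed erythroid markers were 596 to 790 against 399 to 712 CPM at day 9 and 2107 to 5966 against 705 to 1852 CPM at day 13. Of 9 liver endothelial markers 1 was called higher at day 9 and 3 lower at day 13, and 9 stellate cell and fibroblast markers gave the same counts. Of 5 tested cholangiocyte markers 1 was called higher at day 13. No tested neutrophil or T, NK, B and plasma cell marker was called. No skeletal or heart muscle marker reached 1 CPM on average and Myh6 was at 0 in every library. The part of these cell-type differences in the results below was not tested.

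The sequence just upstream of the start that RefSeq gives is shown for 5 members that carried a call on at least 1 day and whose stretch held no annotated exon, because the 2 factors among them that moved in opposite directions, Ndufaf4 and Ndufaf1, can then be read side by side with an accessory subunit of complex I, the Rieske protein of complex III and the supercomplex factor Cox7a2l. Sequences are from RefSeq (GRCm38.p6), 120 bases each, 5′ to 3′ on the strand of the gene. Capitals mark a match to the NRF1 motif letters GCATGCGC on either strand. In Ndufaf4 a match on each strand overlaps the other. The Uqcrfs1 stretch is not adjacent to the RefSeq start: 46 bases lie between them. For Cox7a2l the GENCODE gene starts further upstream than the RefSeq one, so its stretch lies inside the GENCODE gene, in an intron.
Ndufaf4, chr4:24897963-24898082, plus strand: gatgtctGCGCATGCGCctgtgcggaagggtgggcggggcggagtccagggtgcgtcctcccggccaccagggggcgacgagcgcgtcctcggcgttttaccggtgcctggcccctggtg
Ndufaf1, chr2:119662835-119662954, minus strand: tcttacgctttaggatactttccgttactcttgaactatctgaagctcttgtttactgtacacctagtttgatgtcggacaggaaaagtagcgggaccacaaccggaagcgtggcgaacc
Ndufa3, chr7:3617253-3617372, plus strand: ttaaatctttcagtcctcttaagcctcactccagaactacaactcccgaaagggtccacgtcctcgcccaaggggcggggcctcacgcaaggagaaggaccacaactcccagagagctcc
Uqcrfs1, chr13:30545363-30545482, minus strand: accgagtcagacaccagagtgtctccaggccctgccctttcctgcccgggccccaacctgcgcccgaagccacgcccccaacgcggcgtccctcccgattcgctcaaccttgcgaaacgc
Cox7a2l, chr17:83514334-83514453, minus strand: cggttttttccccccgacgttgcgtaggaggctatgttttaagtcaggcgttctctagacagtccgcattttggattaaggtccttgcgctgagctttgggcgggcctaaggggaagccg

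Letter strings of 4 motifs associated with regulators of respiratory genes were searched on both strands of the RefSeq promoter windows, which matched 80 of the 97 members and 27025 symbols in all. The NRF1 string GCATGCGC was present in 12 of the 80 members (15.0%) and in 3.05% of the 27025 symbols. It lay in the windows of Ndufaf4, Ndufaf5, Ndufa6, Ndufa8, Ndufa11, Sdhb, Uqcr11, Uqcrc1, Cox6a1, Atp5g2, Atp5k and Atp5l, and so in genes of every complex. The YY1 string AAGATGGCG was present in 8 members (10.0%, against 1.64%), the ETS string CCGGAAGT in 5 (6.25%, against 4.31%) and the ERR string TCAAGGTCA in 2 (2.5%, against 0.466%). The median log2 fold change of the 12 members with the NRF1 string was -0.19 at day 9 and 0.02 at day 13. The match is a description of the letters and not of binding. The 27025 symbols were not limited to genes tested in these livers, so they are not a background matched to the members.

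At day 9 the summed transcript level of the 97 genes was lower in each Eif3m siRNA library than in each control. It was 10297, 10335 and 10583 CPM in the 3 control libraries and 9056, 8617 and 9772 CPM in the 3 siRNA libraries. The siRNA mean was 12.1% below the control mean and the groups did not overlap. Each of the 5 complexes showed the same order, with complex III lower by 17.1%, complex II by 15.8%, complex IV by 13.0%, complex I by 11.5% and complex V by 10.1%, none of them with overlapping groups. The 13 assembly and other factors did not share it: their sum was 156 ± 11.3 CPM in controls and 156 ± 11.6 CPM with siRNA (SD, n = 3). All these levels are after scaling, with day 9 scaling factors of 0.976 to 1.003 in controls and 1.033 to 1.101 with siRNA. As a share of unscaled counts the 97 genes held 1.033%, 1.017% and 1.033% in controls and 0.952%, 0.948% and 1.009% with siRNA. Those groups did not overlap either, but the gap was smaller in proportion.

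At day 13 the sums overlapped. They were 12007, 12570 and 9377 CPM in controls and 12399, 9394 and 11056 CPM with siRNA, so the low libraries were control replicate 3 and siRNA replicate 2, those that also stood apart over all genes. Complex II was lower by 12.5% with no overlap (941, 919 and 850 CPM in controls against 835, 757 and 781 CPM), complex III lower by 16.3% with overlap, and the assembly and other factors higher with no overlap, at 178, 177 and 160 CPM in controls against 196, 178 and 202 CPM. For the factors the lowest siRNA library and the highest control were both at 178 CPM, so that order rests on a gap far below the spread within the groups.

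**Figure D1:**
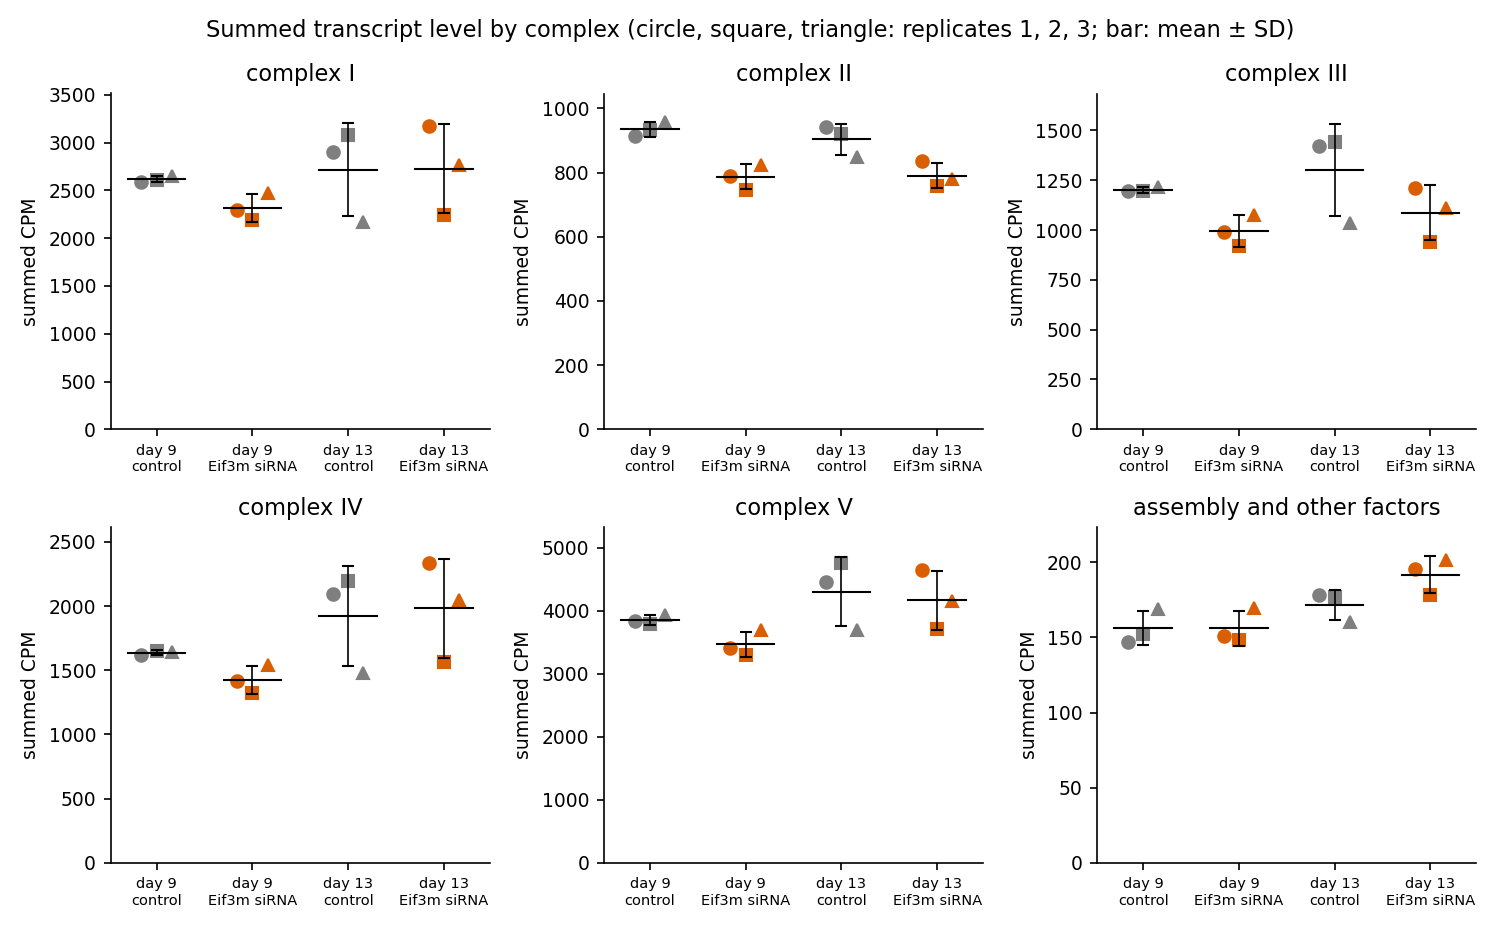
Summed CPM (y axis, from 0) of each complex and of the assembly and other factors in the 12 libraries (x axis, by group), with grey controls, orange Eif3m siRNA, a horizontal bar for the mean and a whisker for the SD of 3 libraries. At day 9 the orange points lie below the grey ones in all 5 complexes, and at day 13 the triangle among controls and the square among siRNA libraries lie low in complexes I, III, IV and V.

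Gene by gene, fold changes at day 9 were small and lay to the negative side. Of the 92 tested members 79 (85.9%) had a log2 fold change below 0, against 48.3% of all 14248 genes tested, and the median was -0.21 against 0.01. In 55 of the 92 (59.8%) every siRNA library was lower than every control, where the background of all genes was 21.0%, and in 5 every siRNA library was higher, where the background was 22.5%. By edgeR's quasi-likelihood test with Benjamini-Hochberg adjustment over all genes tested and the spread shared by both days, 1 member rose (Ndufaf4, background 5.94% of genes called higher) and 3 fell (Ndufa1, Ndufa3 and Ndufaf1, background 6.84% called lower). These called counts lie below the background, and the 24 members (26.1%) with an unadjusted p below 0.05 lie near the 27.4% of all genes. DESeq2 called 2 members higher (background 8.24%) and 8 lower (background 10.0%) at day 9, and limma-voom 2 higher (background 9.15%) and 7 lower (background 10.1%).

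The count of calls at day 9 differed with the libraries that entered the fit. Each fit set its own filter, scaling and spread, and their separate parts were not tested. With the 6 day 9 libraries alone 35 of 91 members were called, 3 higher (background 11.4%) and 32 lower (background 11.6%). The 32 were 4 core and 8 accessory subunits of complex I, 1 of complex II, 5 of complex III, 5 of complex IV, 7 of complex V and 2 factors. With all libraries except day 13 control replicate 3 and day 13 Eif3m siRNA replicate 2, 31 members were called at day 9, 3 higher (background 9.12%) and 28 lower (background 10.4%). Both fits called Cox7a2l, Ndufaf4 and Sdhaf3 higher.

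At day 13, in the fit over all libraries, 2 members rose (Cox7a2l and Ndufaf4, background 12.8% called higher) and 6 fell (Ndufa1, Ndufa3, Ndufb3, Sdhaf4, Sdhd and Uqcrfs1, background 10.9% called lower). DESeq2 called 3 higher (background 14.3%) and 10 lower (background 12.5%), and limma-voom 2 higher (background 10.6%) and 5 lower (background 8.58%). The median of the 92 members was -0.06, against 0.00 for all genes, and 55 members (59.8%) were below 0. Every siRNA library was lower than every control in 6 members (background 16.0%) and higher in 5 (background 17.2%), counts below the background. Without control replicate 3 the median was -0.21 and 26 members were called lower (background 10.1%) and 2 higher (background 10.9%). Without siRNA replicate 2 it was 0.07, with 2 called lower (background 9.31%) and 8 higher (background 11.0%). With both left out 22 were called lower (background 9.08%) and 5 higher (background 10.9%), and with the 6 day 13 libraries alone 2 were called lower (background 7.97%) and 2 higher (background 8.86%).

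**Figure D2:**
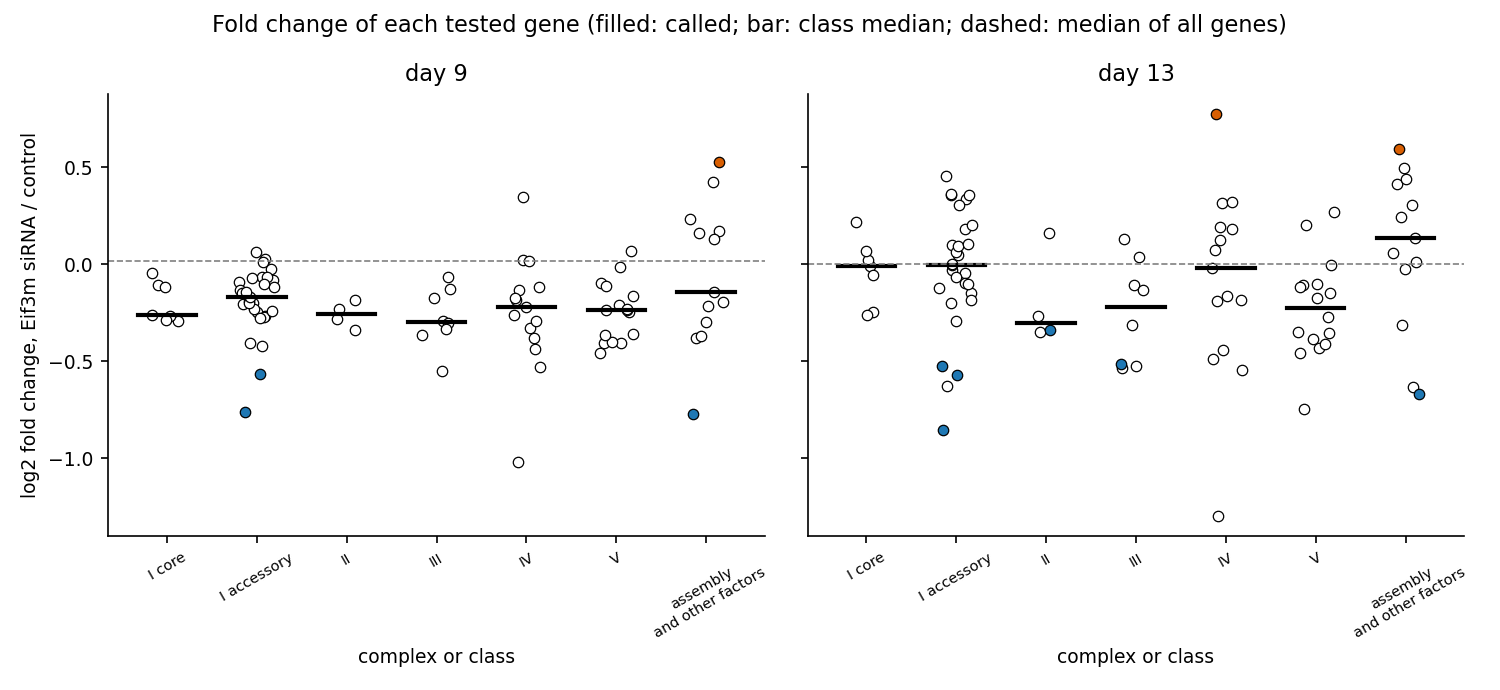
Log2 fold change of Eif3m siRNA over control (y axis) for each of the 92 tested members, by complex or class (x axis), at day 9 on the left and day 13 on the right. Filled points passed the test (orange higher, blue lower), bars are class medians and the dashed line is the median of all genes. Class medians lie between -0.30 and -0.14 at day 9 and between -0.30 and 0.14 at day 13.

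Complex I takes electrons from NADH. Its 7 nuclear core subunits, which carry the flavin and the iron-sulfur clusters, had a median log2 fold change of -0.26 at day 9, and over all libraries 0 of the 7 was called by edgeR, DESeq2 or limma-voom on either day or had an unadjusted p below 0.05 in edgeR, whereas the day 9 libraries alone called 4 lower. In 5 of the 7 every day 9 siRNA library was lower than every control (background 21.0%). Ndufs3 was at 111, 109 and 109 CPM in day 9 controls and 90.8, 83.9 and 94.0 CPM with siRNA, whereas Ndufs1, the largest subunit, was at 127, 134 and 139 CPM against 125, 129 and 133 CPM. Every siRNA library was thus lower than every control for Ndufs3, and the Ndufs1 groups overlapped. Ndufs3 was called lower at day 13 without control replicate 3 (adjusted p = 0.0325). Exons of Ndufs1, 8086 bases in all, overlap those of Eef1b2 on the other strand, within chr1:63176825-63176833. The part of this overlap in the counts was not tested. At day 13 the core median was -0.01 and all 7 groups overlapped.

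The 29 accessory subunits of complex I are small proteins that surround and stabilise the core. Of these, 2 were called lower at day 9 (background 6.84%) and 3 at day 13 (background 10.9%), shares near the background. Ndufa1 (chrX:37187588-37191163) encodes a small membrane-anchored subunit. It was at 37.7, 43.5 and 41.3 CPM in day 9 controls and 24.5, 20.9 and 26.9 CPM with siRNA, and at 36.3, 51.4 and 28.4 CPM in day 13 controls and 21.7, 19.4 and 23.1 CPM with siRNA. All siRNA libraries were lower than all controls on both days. Its log2 fold change came to -0.76 (SE 0.171, adjusted p = 0.0109 by edgeR) at day 9 and -0.85 (SE 0.185, adjusted p = 0.00436) at day 13. The day 9 call was lost without siRNA replicate 2 of that day (adjusted p = 0.0595), and the gene remained called in every other alternative run on either day.

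Ndufa3 (chr7:3617373-3620327), another small subunit of the membrane arm, was at 41.6, 41.5 and 47.0 CPM in day 9 controls and 29.6, 26.8 and 31.3 CPM with siRNA. At day 13 it was at 48.9, 51.2 and 33.8 CPM in controls and 35.1, 21.8 and 33.2 CPM with siRNA. The day 9 groups were separate and those of day 13 overlapped through control replicate 3. On the log2 scale the change was -0.57 on both days (SE 0.173 and 0.183, adjusted p = 0.0452 and 0.0362 by edgeR). The call was lost in 10 of the 22 alternatives at day 9, among them leaving out any 1 of the 6 day 9 libraries (adjusted p = 0.0869 to 0.159), day 13 control replicate 1 (0.0526) or day 13 siRNA replicate 3 (0.0621). At day 13 it was lost in 6 of 22, among them leaving out control replicate 1 (0.118), control replicate 2 (0.131), siRNA replicate 2 (0.114) or siRNA replicate 3 (0.0532).

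Ndufb3 (chr1:58586384-58595964), of the distal membrane arm, was at 34.9, 40.2 and 37.4 CPM in day 9 controls and 27.7, 26.5 and 30.8 CPM with siRNA, and at 50.7, 60.7 and 36.9 CPM in day 13 controls and 36.6, 30.5 and 35.9 CPM with siRNA. No siRNA library reached the lowest control on either day, although at day 13 the gap was small. Its log2 fold change was -0.40 at day 9 (SE 0.150, adjusted p = 0.0947 by edgeR) and -0.52 at day 13 (SE 0.158, adjusted p = 0.0276). The gene was called at day 9 without day 13 control replicate 3 (0.0248). The day 13 call was lost in 7 of 22 alternatives, among them leaving out day 13 control replicate 1 (adjusted p = 0.0747), control replicate 2 (0.131), siRNA replicate 2 (0.0842) or siRNA replicate 3 (0.0590).

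The other accessory subunits ranged from -0.42 (Ndufv3) to 0.06 (Ndufb6) at day 9 and from -0.63 (Ndufs5) to 0.45 (Ndufa5) at day 13. Ndufb9, which had the highest level per kilobase of exon in complex I (146 CPM per kilobase over all libraries), was at 148, 151 and 147 CPM in day 9 controls and 136, 129 and 150 CPM with siRNA. Livers of day 13 had 147, 158 and 113 CPM against 201, 143 and 190 CPM. The groups overlapped on both days, and the log2 fold changes were -0.10 and 0.36 (adjusted p = 0.691 and 0.0885 by edgeR). Ndufb9 was called higher at day 13 without siRNA replicate 2 (adjusted p = 0.0239) and without both libraries that stand apart (0.0337). Ndufb4 is uncertain because an annotated pseudogene row, Ndufb4c, held more counts (49.4 CPM on average) than Ndufb4 itself (16.0 CPM).

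Complex II, succinate dehydrogenase, belongs both to the electron transport chain and to the tricarboxylic acid cycle and is encoded in the nucleus alone. All 4 subunits were lower in every day 9 siRNA library than in every day 9 control (background 21.0%), with a median log2 fold change of -0.26. Sdha, the flavoprotein, was at 403, 429 and 434 CPM in day 9 controls and 372, 340 and 365 CPM with siRNA, and at 413, 399 and 446 CPM in day 13 controls and 350, 357 and 336 CPM with siRNA. The log2 fold changes were -0.23 and -0.27 (SE 0.0943 and 0.0948, adjusted p = 0.126 and 0.0545 by edgeR), past the threshold on neither day although no groups overlapped. DESeq2 called Sdha lower on both days (adjusted p = 0.00518 and 0.00125), and at day 13 so did limma-voom (0.0389) and edgeR with upper-quartile scaling (0.0254), a mean of at least 5 CPM (0.0219) or without day 9 siRNA replicate 2 (0.0395). Control replicate 3 was the highest day 13 control for Sdha.

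Sdhd (chr9:50596357-50603812), a membrane anchor that binds heme and ubiquinone and the member of complex II with the highest level per kilobase, was at 170, 181 and 194 CPM in day 9 controls and 147, 138 and 163 CPM with siRNA. Its day 13 levels were 169, 158 and 137 CPM in controls and 125, 112 and 129 CPM with siRNA. The groups were separate on both days. Its log2 fold change was -0.28 at day 9 (SE 0.111, adjusted p = 0.117 by edgeR) and -0.34 at day 13 (SE 0.113, adjusted p = 0.0443), and the day 13 call was lost in 11 of 22 alternatives. These included leaving out any day 13 library but control replicate 3 (adjusted p = 0.0660 to 0.162), day 9 control replicate 2 (0.0565) or 3 (0.0506), or day 9 siRNA replicate 1 (0.0528). Sdhb, the iron-sulfur subunit, gave values on opposite sides of 0, with log2 fold changes of -0.19 and 0.16 (adjusted p = 0.349 and 0.378), and the difference between the days was not called (0.35, adjusted p = 0.31).

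Complex III passes electrons from ubiquinol to cytochrome c. Its 8 members had a median log2 fold change of -0.30 at day 9 and -0.22 at day 13. Uqcrfs1 (chr13:30540308-30545362), the Rieske iron-sulfur protein that is inserted last into the complex, was at 185, 187 and 191 CPM in day 9 controls and 147, 138 and 162 CPM with siRNA. At day 13 it was at 181, 192 and 153 CPM in controls and 133, 113 and 122 CPM with siRNA. The groups were separate on both days. The log2 fold change was -0.33 at day 9 (SE 0.109, adjusted p = 0.0626 by edgeR) and -0.51 at day 13 (SE 0.111, adjusted p = 0.00436). The day 13 call held in all 22 alternatives, and 6 of 22 also called the gene lower at day 9, among them leaving out day 13 control replicate 3 (adjusted p = 0.0337) or day 13 siRNA replicate 2 (0.0498).

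Of the other subunits of complex III, Uqcr11, a small subunit of the membrane part, was at 88.3, 90.5 and 95.5 CPM in day 9 controls and 64.1, 54.2 and 68.9 CPM with siRNA. Its day 13 levels were 83.0, 79.8 and 49.0 CPM against 55.1, 38.1 and 52.9 CPM. Its log2 fold changes were -0.55 and -0.54 (adjusted p = 0.0617 and 0.0545 by edgeR), with overlap at day 13. Uqcr11 was called lower in 7 of 22 alternatives at day 9, DESeq2 (adjusted p = 0.0350) and limma-voom (0.0442) among them, and in 6 of 22 at day 13. Leaving out day 13 control replicate 3 gave a call on both days (0.0127 and 0.00285), and leaving out day 13 siRNA replicate 2 gave one at day 9 (0.0374). Uqcr10, the complex III member with the highest level per kilobase (159 CPM per kilobase), was at 84.2 ± 2.39 and 80.4 ± 8.54 CPM in control and siRNA livers at day 9 and at 102 ± 26.8 and 105 ± 18.7 CPM at day 13 (SD, n = 3). Its groups overlapped on both days.

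As a share of all subunit transcripts of complexes I to V, complex III was lower with siRNA on both days. At day 9 it made up 11.73 ± 0.030% of the subunit sum in controls and 11.07 ± 0.192% with siRNA (SD, n = 3). At day 13 it made up 11.63 ± 0.399% and 10.12 ± 0.151%. All siRNA libraries were below all controls on each day, which for 3 against 3 is an exact two-sided permutation p of 0.1, the smallest possible. That p is not adjusted for the choice of this complex among complexes I to V. The share is taken within a library, and the day 13 controls, replicate 3 included, lay between 11.22% and 12.02%. Complex II also had the lower share at day 9 (9.12 ± 0.106% against 8.76 ± 0.150%), and its day 13 shares overlapped. In the same closed sum every siRNA library had a higher share at day 9 for complex I (25.55 ± 0.103% against 25.77 ± 0.045% with siRNA) and complex V (37.62 ± 0.341% against 38.56 ± 0.304%), and both overlapped at day 13.

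Complex IV reduces oxygen to water. Of its 20 members 15 were tested, with a median log2 fold change of -0.22 at day 9 and -0.02 at day 13. In edgeR 0 of the 15 was called at day 9 (4, or 26.7%, had an unadjusted p below 0.05, against 27.4% of all genes), against 1 with DESeq2, Cox6c, and 0 with limma-voom. Cox7a2l (chr17:83501918-83517330), a homologue of a complex IV subunit that tethers complexes III and IV in supercomplexes, was the member that rose most at day 13. It was at 68.8, 71.6 and 74.6 CPM in day 9 controls and 90.5, 90.8 and 92.1 CPM with siRNA, and at 83.7, 89.8 and 65.1 CPM in day 13 controls and 146, 114 and 149 CPM with siRNA. Every siRNA library was above every control on both days. On the log2 scale the change was 0.35 at day 9 (SE 0.129, adjusted p = 0.0976 by edgeR) and 0.78 at day 13 (SE 0.133, adjusted p = 0.000919), and the day 13 call held in all 22 alternatives. At day 9 the gene was called in 3 of 22, among them without day 13 control replicate 3 (0.0408). The difference between days was not called (0.43, adjusted p = 0.235).

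Cox4i1, the subunit through which ATP regulates the enzyme and the complex IV member with the highest level per kilobase as a mean over the 12 libraries (258 CPM per kilobase), was at 288, 296 and 283 CPM in day 9 controls and 264, 249 and 286 CPM with siRNA. Livers of day 13 had 483, 516 and 396 CPM in controls and 723, 420 and 595 CPM with siRNA. The groups overlapped on both days and neither change was called (-0.12 and 0.32, adjusted p = 0.697 and 0.186 by edgeR). Leaving out 1 library gave 0.13 to 0.49 for Cox4i1 at day 13, with a call without siRNA replicate 2 (adjusted p = 0.0209) and without both libraries that stand apart (0.0395). In day 9 controls Cox4i1 was at 186 CPM per kilobase, below Cox6a1 at 221, Cox8a at 202 and Cox6b1 at 190. Cox6c and Ndufa4, both small subunits of the enzyme, were at 69.2% and 73.8% of the control mean at day 9 and at 71.2% and 73.6% at day 13. Neither passed the test over all libraries on either day (adjusted p = 0.0679 and 0.100 at day 9, 0.0645 and 0.0705 at day 13), with separate groups at day 9 and overlap at day 13. Over the alternatives Cox6c was called lower in 6 of 22 at day 9 and 5 of 22 at day 13, and Ndufa4 in 3 of 22 on each day. Both were called on each day without day 13 control replicate 3, both at day 13 without day 13 siRNA replicate 1, and Cox6c at day 9 without day 13 siRNA replicate 2.

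Several complex IV subunits exist as paired isoforms, a ubiquitous or liver form and a heart and muscle or hypoxia-linked form. The liver forms were far higher per kilobase of exon, averaged over the 12 libraries. Cox4i2 was at 0.218 CPM per kilobase against 258 for Cox4i1, Cox6a2 was at 0.0308 against 208 for Cox6a1, Cox7a1 was at 0.836 against 98.4 for Cox7a2, and Cox8b was at 0.00415 against 202 for Cox8a. Cox7b2 and Cox8c were at 0 counts in all 12 libraries. Of Cox4i2, Cox6a2, Cox7a1 and Cox8b only Cox7a1 had enough counts to be tested, at 14, 20 and 14 counts in day 9 controls and 9, 10 and 10 with siRNA, and its change was not called (adjusted p = 0.216 at day 9 and 0.192 at day 13 by edgeR). Cox7a1 was called lower at day 13 without siRNA replicate 1 (adjusted p = 0.0370). Ndufa4l2, the hypoxia-induced relative of Ndufa4, stayed at 0.404 to 1.18 CPM over the 12 libraries, and its exons overlap those of Shmt2.

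Complex V is the ATP synthase. Its 16 members had a median log2 fold change of -0.24 at day 9 and -0.22 at day 13, and 15 and 14 of them were below 0. In edgeR 0 of 16 was called on either day (3, or 18.8%, had an unadjusted p below 0.05 on each day, against 27.4% of all genes at day 9 and 36.0% at day 13), DESeq2 called 0 at day 9 and Atp5b at day 13, and limma-voom called 0. In 12 of 16 every day 9 siRNA library was lower than every control (background 21.0%). The 3 genes for subunit c, the ring-forming proteolipid, were at 126 (Atp5g3), 27.6 (Atp5g1) and 4.39 (Atp5g2) CPM per kilobase over all libraries. Atp5g3 was at 274, 268 and 281 CPM in day 9 controls and 212, 195 and 235 CPM with siRNA, and Atp5g1 at 125, 117 and 128 CPM against 92.8, 90.0 and 96.4 CPM. Both were separate between groups at day 9 and not called (adjusted p = 0.183 and 0.208 by edgeR). Both Atp5g3 and Atp5g1 were called lower without day 13 control replicate 3, at day 9 (0.0317 and 0.0486) and at day 13 (0.00144 and 0.00402). Atp5g2 lay between 0.845 and 2.39 CPM at day 9 and spread from 2.49 to 31.9 CPM over the day 13 libraries, so its change (log2 fold change -0.75 at day 13, SE 0.762) was not resolved.

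Atp5b, the catalytic beta subunit of complex V and the highest member per kilobase as a mean over the 12 libraries (282 CPM per kilobase), did not lie on the negative side. In controls it was below Atp5a1 on both days (253 against 280 CPM per kilobase at day 9, 276 against 306 at day 13) and at day 13 also below Cox4i1 (300 CPM per kilobase). It was at 1056, 1059 and 1106 CPM in day 9 controls and 1094, 1098 and 1178 CPM with siRNA, and at 1135, 1220 and 1152 CPM in day 13 controls and 1550, 1270 and 1405 CPM with siRNA. The groups overlapped at day 9, and at day 13 every siRNA library was above every control. The log2 fold changes were 0.07 (SE 0.107, adjusted p = 0.744 by edgeR) and 0.27 (SE 0.107, adjusted p = 0.0851). Its partner in the catalytic head, the alpha subunit Atp5a1, was at 880, 862 and 888 CPM in day 9 controls and 757, 726 and 793 CPM with siRNA, with a change of -0.21 on the log2 scale (SE 0.103, adjusted p = 0.21), and a change of -0.15 (adjusted p = 0.33) at day 13.

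The 13 assembly and other factors, which help to build the complexes and leave them, changed in both directions. Ndufaf4 (chr4:24898083-24905001), a factor for early assembly of complex I whose upstream sequence is printed above, was at 22.8, 24.7 and 28.5 CPM in day 9 controls and 35.4, 35.1 and 39.1 CPM with siRNA. Its day 13 levels were 33.9, 32.2 and 41.2 CPM in controls and 53.71, 53.87 and 54.97 CPM with siRNA. All siRNA libraries were above all controls on both days. Its log2 fold change was 0.53 at day 9 (SE 0.116, adjusted p = 0.00961 by edgeR) and 0.60 at day 13 (SE 0.121, adjusted p = 0.00295), and both calls held in all 22 alternatives.

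Ndufaf1 (chr2:119655446-119662827), which acts in assembly of the membrane arm of complex I, was at 20.9, 21.9 and 22.8 CPM in day 9 controls and 12.1, 11.7 and 14.5 CPM with siRNA, and at 14.7, 14.4 and 12.6 CPM in day 13 controls and 9.65, 10.3 and 13.4 CPM with siRNA. The groups were separate at day 9 and overlapped at day 13. The log2 fold change was -0.77 at day 9 (SE 0.130, adjusted p = 0.00203 by edgeR, held in all 22 alternatives) and -0.32 at day 13 (SE 0.151, adjusted p = 0.15). The difference between days was not called (0.46, adjusted p = 0.239), so the effect is not shown to differ between them.

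Sdhaf4 (chr1:23995939-24005656), which assists the flavin-bearing Sdha into complex II, was at 10.6, 12.4 and 14.3 CPM in day 9 controls and 9.72, 8.60 and 10.5 CPM with siRNA, and at 11.3, 15.0 and 7.80 CPM in day 13 controls and 7.41, 6.21 and 7.67 CPM with siRNA. The groups were separate on both days by narrow gaps, and at day 13 the values rested on 53 to 105 counts. On the log2 scale the change was -0.37 at day 9 (SE 0.182, adjusted p = 0.208 by edgeR) and -0.67 at day 13 (SE 0.220, adjusted p = 0.0404), and the day 13 call was lost in 10 of 22 alternatives. These included leaving out any day 13 library but control replicate 3 (adjusted p = 0.0710 to 0.189) or day 9 control replicate 2 (0.0514). Sdhaf3, a factor for the iron-sulfur subunit, gave log2 fold changes of 0.42 and 0.50 (adjusted p = 0.081 and 0.0611; called higher in 4 and 1 of 22 alternatives, at day 13 without control replicate 2), with every siRNA library above every control on both days.

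**Figure D3:**
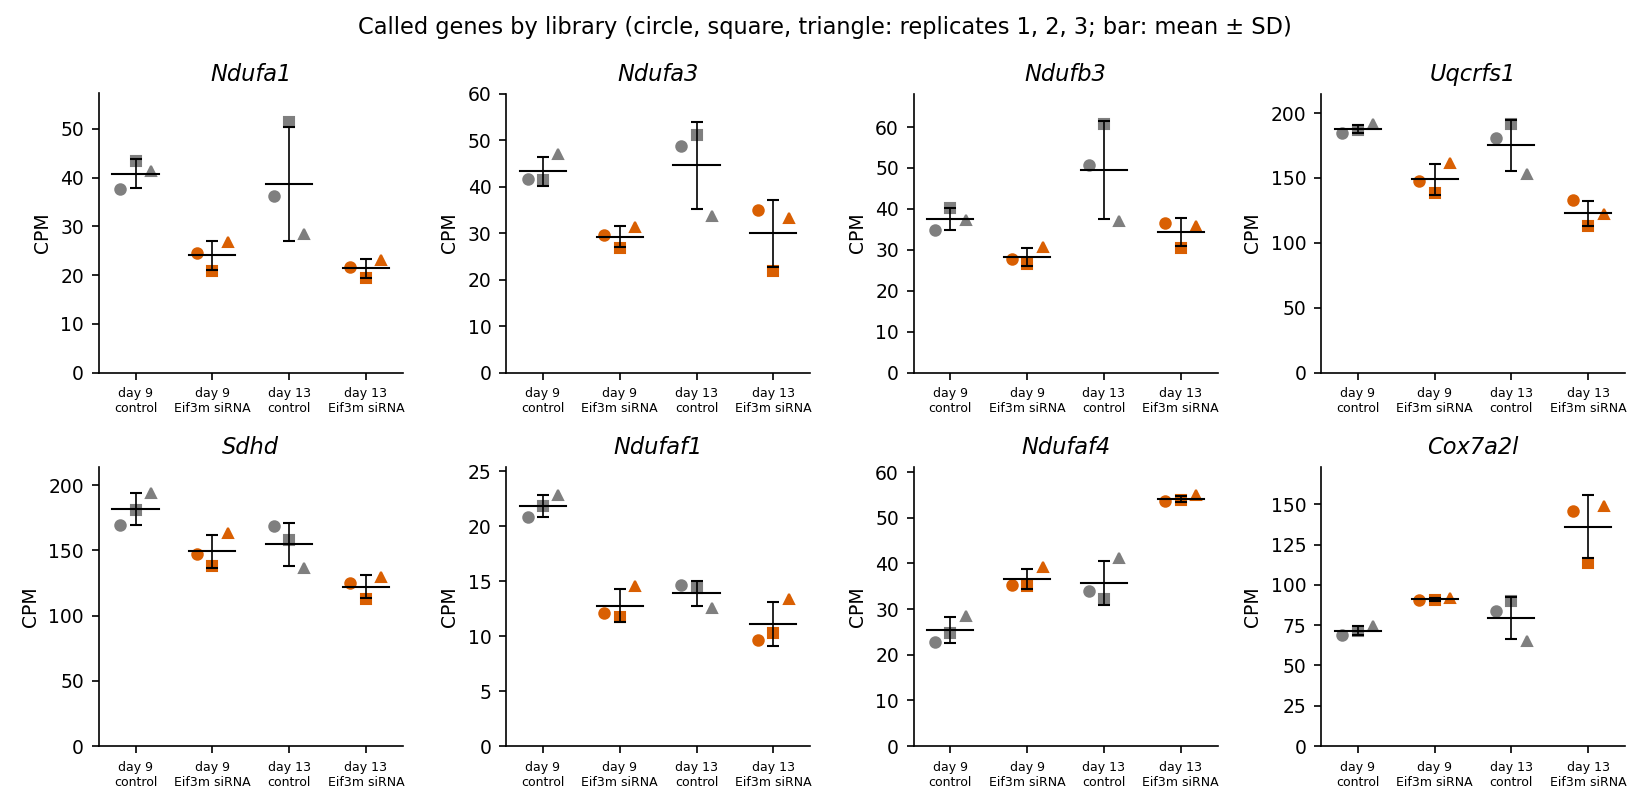
CPM (y axis, from 0) in each of the 12 libraries (x axis, by group) for 8 of the 9 members called on at least 1 day (Sdhaf4 is not drawn), with grey controls, orange Eif3m siRNA, bars for the mean and whiskers for the SD of 3 libraries. Orange lies above grey on both days for Ndufaf4 and Cox7a2l, and below it on both days for Ndufa1, Ndufb3, Uqcrfs1 and Sdhd.

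The fold changes of the 92 members at the 2 days, which share no samples, ranked alike (Spearman's rho 0.73 and Pearson's r 0.77 across genes, against a rho of 0.40 for all 14248 genes). The members are mostly well counted: 87 of them had a mean of at least 5 CPM, against 9310 of all genes. No comparison of these correlations with genes of matched level was made. Genes are not independent replicates, and all members share the same libraries within a day. In 55 members the log2 fold change was below 0 on both days, in 13 above 0 on both, in 24 below 0 at day 9 and above 0 at day 13, and in 0 the reverse. For the difference between days 0 members were called by edgeR (background 2.55%), 3 (3.26%) had an unadjusted p below 0.05 against 18.2% of all genes, and DESeq2 (background 6.79%) and limma-voom (background 1.77%) each called 0. Without day 13 control replicate 3, Cox7c was called lower for the difference (background 1.32%), and without both day 13 libraries that stand apart Cox7c and Ndufs5 were (background 1.48%). Cox7c was at 45.1, 46.5 and 14.8 CPM in day 13 controls and 25.3, 22.7 and 24.4 CPM with siRNA, so that control replicate 3 was the lowest of the 6.

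**Figure D4:**
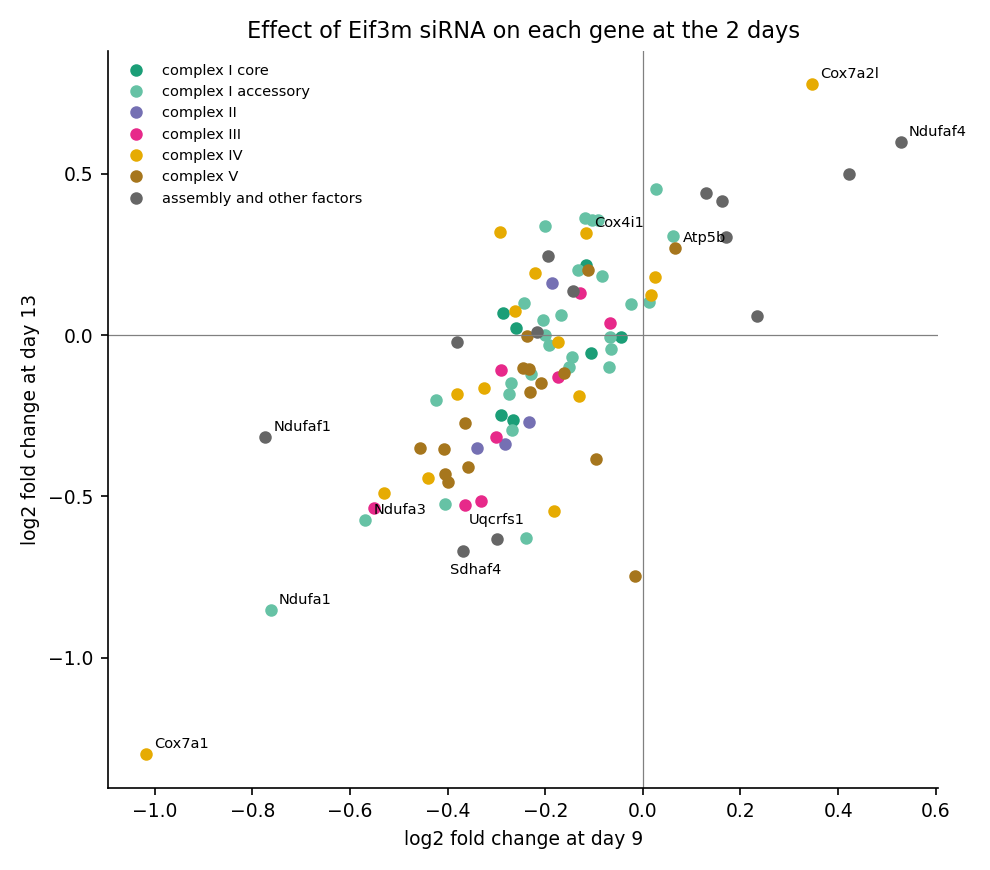
Log2 fold change at day 13 (y axis) against day 9 (x axis) for the 92 tested members, coloured by complex or class. Most points lie at the lower left, where 55 members are below 0 on both days, and Cox7a2l and Ndufaf4 lie at the upper right.

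The shift of the members in a library moved with a property of the library over all genes. Each gene's deviation was taken from its mean over all 12 libraries, so the values also hold the difference between the days. The median deviation of the members was 0.02, 0.00 and 0.06 (log2) in day 9 controls and -0.19, -0.27 and -0.07 with siRNA. It was 0.23, 0.26 and -0.22 in day 13 controls and 0.22, -0.22 and 0.06 with siRNA. The rank correlation over all genes between a gene's deviation in the library and its exon length was 0.0056, 0.103 and 0.00058 in day 9 controls, 0.187, 0.328 and 0.0944 with siRNA, -0.229, -0.183 and 0.254 in day 13 controls, and -0.280, 0.176 and -0.161 with siRNA. The 4 libraries in which longer genes read highest were the 4 in which the members read lowest. At day 9 the length relation overlapped between the groups by a small margin, with 0.103 in control replicate 2 and 0.0944 in siRNA replicate 3. The member medians did not overlap at day 9. In both day 9 groups replicate 2 had the highest length correlation and the lowest member median. The members are short, with a median merged exon length of 1737 bases against 4132 for all genes tested. Over all genes the log2 fold change had a rank correlation with exon length of 0.12 at day 9 and -0.05 at day 13. Within the 92 tested members it was 0.19 at day 9 and 0.11 at day 13. The part of this length relation in the lower sums at day 9 was not tested.

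**Figure D5:**
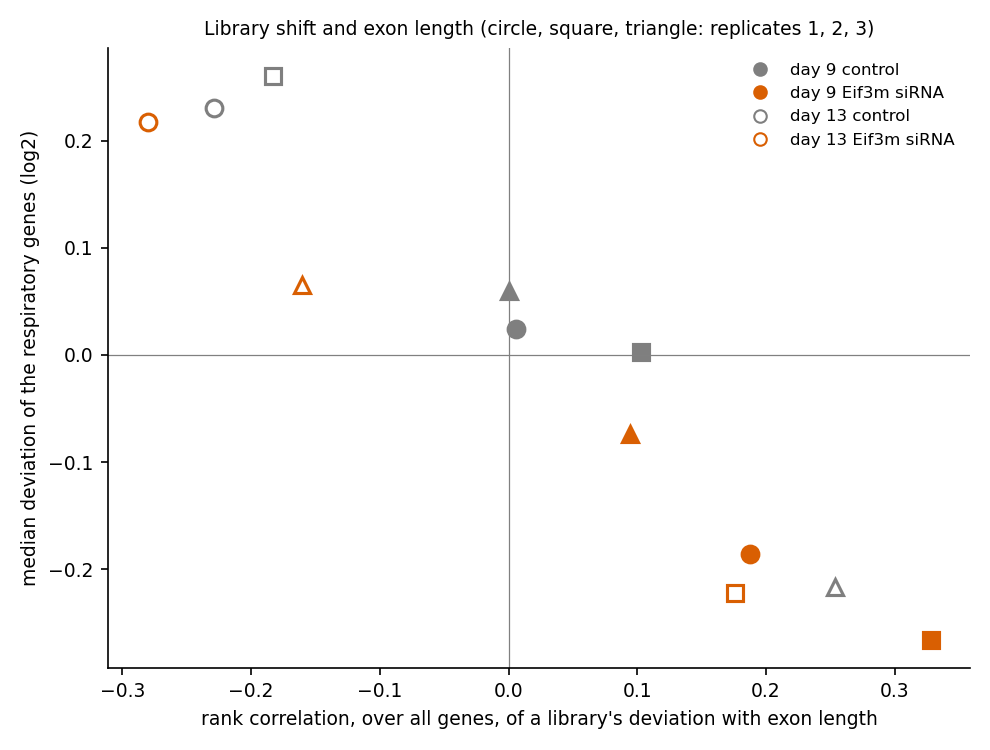
Median log2 deviation of the respiratory genes from their mean over the 12 libraries (y axis) against the rank correlation of each library's gene deviations with exon length over all genes (x axis), 1 point per library. Day 9 libraries are filled and day 13 libraries open. The libraries with the most positive length relation, up to 0.328, have the lowest member medians, down to -0.27.

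Of the 13 subunits encoded by mitochondrial DNA, the summed transcripts after scaling overlapped between groups on both days. They amounted to 35842 ± 1058 CPM in day 9 controls and 36013 ± 405 CPM with siRNA, and to 46565 ± 15296 and 46828 ± 6549 CPM at day 13 (SD, n = 3). As a share of unscaled counts they held 3.715%, 3.452% and 3.455% in day 9 controls and 3.735%, 3.994% and 3.737% with siRNA. Without scaling every day 9 siRNA library was thus higher than every control, whereas the day 13 shares overlapped. In edgeR 0 of the 13 was called at day 9 (0 with an unadjusted p below 0.05, and 0 with DESeq2 or limma-voom), and 0 at day 13 (1 with an unadjusted p below 0.05, 1 with DESeq2, 0 with limma-voom). Their medians were 0.13 and -0.13. At day 9 every siRNA library was lower than every control for mt-Cytb and mt-Co3 (background 21.0%) and higher for mt-Nd2, mt-Nd3 and mt-Nd5 (background 22.5%). With the libraries of each day alone, 1 of the 13 was called at day 9 (background 23.0%) and 0 at day 13 (background 16.8%). The difference between mitochondrial and nuclear subunits was not tested.

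Genes that work next to the complexes were examined as lists beside the same background (5.94% higher and 6.84% lower at day 9, 12.8% and 10.9% at day 13). Of 41 tested assembly factors outside the prefixes 1 rose and 1 fell at day 9, and 4 rose and 2 fell at day 13. Lrpprc, which stabilises mitochondrial messenger RNA, rose from 115 ± 7.16 to 193 ± 10.1 CPM at day 9 and from 135 ± 16.6 to 251 ± 7.84 CPM at day 13 (SD, n = 3; log2 fold change 0.75 and 0.89, adjusted p = 0.000694 and 7.01e-05 by edgeR). Sco2, a copper chaperone for complex IV, fell at day 9 (log2 fold change -0.75, adjusted p = 0.0132), a call lost without day 9 control replicate 1 (adjusted p = 0.0630) or siRNA replicate 2 (0.0549). Of 18 genes of cytochrome c, cytochrome c1 and ubiquinone synthesis 2 fell at day 9, and 2 rose and 4 fell at day 13. Coq8a, a kinase-like protein needed to make ubiquinone, fell from 312, 284 and 293 CPM to 88.1, 135 and 114 CPM at day 9 and from 194, 270 and 194 CPM to 126, 101 and 109 CPM at day 13 (log2 fold change -1.40 and -0.97, adjusted p = 0.000217 and 0.000919 by edgeR).

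Of 21 genes of the tricarboxylic acid cycle and pyruvate dehydrogenase 1 rose and 5 fell at day 9, and 3 rose and 6 fell at day 13. Pdk1, an inhibitory kinase of pyruvate dehydrogenase, fell on both days (log2 fold change -1.14 and -1.75, adjusted p = 0.000761 and 2.26e-05 by edgeR). Of 9 tested carriers for ATP, phosphate and anions and uncoupling proteins 1 fell at day 9, and 1 rose and 1 fell at day 13. Slc25a10, the dicarboxylate carrier, fell on both days (log2 fold change -0.72 and -1.08), and Slc25a3, the phosphate carrier that supplies complex V, rose at day 13 (log2 fold change 0.35, adjusted p = 0.0255), a call lost in 8 of 22 alternatives, among them leaving out day 13 control replicate 1 (adjusted p = 0.0521) or 3 (0.0962) or siRNA replicate 1 (0.0885) or 3 (0.0900). Of 14 regulators of respiratory genes 1 rose and 1 fell at day 9, and 2 rose and 0 fell at day 13. Pprc1 rose at day 9 (log2 fold change 0.66, adjusted p = 0.0404 by edgeR), a call lost in 8 of 22 alternatives. At day 13 Gabpb1 (0.56, adjusted p = 0.0102) and Twnk (0.32, adjusted p = 0.0333) rose, with the calls lost in 2 and 12 of 22 alternatives. Ppargc1a, the coactivator of mitochondrial biogenesis, was at 11.0, 14.7 and 11.4 CPM in day 9 controls and fell to 8.13, 8.35 and 8.55 CPM (log2 fold change -0.57, adjusted p = 0.0158 by edgeR), a call lost without day 9 control replicate 2 (adjusted p = 0.0785), siRNA replicate 1 (0.0545) or siRNA replicate 2 (0.0531). At day 13 its log2 fold change was 0.04 (adjusted p = 0.893), and the difference between days was not called (adjusted p = 0.138).

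Of 24 genes of mitochondrial protein import and inner membrane folding 3 rose and 1 fell at day 9, and 10 rose and 2 fell at day 13, with medians of 0.08 and 0.37. Hspa9, the matrix chaperone that pulls imported proteins across the inner membrane, rose from 500, 526 and 548 CPM to 823, 1044 and 949 CPM at day 9 and from 435, 463 and 462 CPM to 1237, 1193 and 1227 CPM at day 13 (log2 fold change 0.84 and 1.43, adjusted p = 0.000465 and 2.72e-06 by edgeR). Hspd1, the matrix chaperonin, rose at day 13 (log2 fold change 0.69, adjusted p = 0.000337). Immt, a scaffold of the cristae in which the complexes sit, fell on both days (log2 fold change -0.43 and -0.56, adjusted p = 0.00851 and 0.00082).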

How the data were processed

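Messenger RNA of 12 mouse liver libraries was captured and sequenced, per the labels' protocols. The authors deposited expected counts per Ensembl gene, as whole numbers, in 1 table. Tools listed in the submitters' processing notes are STAR 2.5.3a and RSEM 1.3.0, with the build mm10. The sources used here give no annotation release, strand setting or filter. Symbols, positions and exon lengths came from GENCODE M21 (GRCm38), and 224 identifiers without an entry held 0.0199% of the counts.

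Genes were kept by filterByExpr (minimum count 10), which left 14248, and fitted in edgeR 4.0.16 (R 4.3.3) with TMM scaling, 4 group means (8 residual degrees of freedom) and the robust quasi-likelihood test, with Benjamini-Hochberg adjustment over all genes tested and a threshold of 0.05. SE is the log2 fold change divided by the square root of F. The script was tested on simulated counts. Alternatives were DESeq2 1.42.0, limma-voom (limma 3.58.1), other scalings and filters, a replicate block, each day alone, thinned day 9 counts and leaving out libraries. A fit without both day 13 libraries that stand apart was chosen after seeing the data.

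Members and lists were chosen with earlier results of these data known. Named were members called at day 9, the 3 with the smallest p per class among those called at day 13, those called for the difference, the highest per kilobase in each complex, and muscle or hypoxia-linked isoforms, and up to 2 called genes per other list and day. Other members were named after their values were seen, to describe the rest of a complex. Exons of 35 members overlap another gene, and 11 pseudogene rows were left out. Replicate libraries of a group differed by more than sampling noise.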

Additional observations from a re-analysis of the deposited data

Results flagged for a closer look

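Suclg2, the GDP-forming succinyl-CoA ligase subunit of the tricarboxylic acid cycle, fell on both days, and the difference between the days passed its own test (day 13 minus day 9, log2 -0.63, SE 0.14, adjusted p = 0.0336 by edgeR). It was at 283, 303 and 308 CPM in day 9 controls and 218, 187 and 216 CPM with siRNA, and at 239, 245 and 229 CPM against 114, 102 and 104 CPM at day 13. The test of the difference was passed in 11 of 21 alternatives and lost in 10, with adjusted p up to 0.109, among them leaving out any 1 day 9 library but siRNA replicate 2 (0.0566 to 0.101), day 13 control replicate 1 (0.0643) or 2 (0.0621), or day 13 siRNA replicate 3 (0.0868). The same test called 2 genes whose exons overlap a member. Eef1b2, a translation elongation factor subunit that overlaps Ndufs1, rose more at day 13 (difference 0.94, adjusted p = 0.0448). Impdh2, an enzyme of guanine nucleotide synthesis that overlaps Ndufaf3, rose at day 13 alone by the test (difference 0.80, adjusted p = 0.0372). The difference was lost in 14 of 21 alternatives for Eef1b2 (adjusted p up to 0.127) and in 12 of 21 for Impdh2 (up to 0.0954), among them, for both, leaving out any 1 of the 6 day 9 libraries or any of day 13 control replicate 3 and siRNA replicates 1 and 3, and also control replicate 1 for Eef1b2 and control replicate 2 for Impdh2. Neither Ndufs1 nor Ndufaf3 was called for the difference.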

How the results depend on the processing

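Over all libraries 4 members were called at day 9 (1 higher, 3 lower), 8 at day 13 (2 higher, 6 lower) and 0 for the difference. DESeq2 called 10 at day 9 (2 higher, 8 lower) and 13 at day 13 (10 lower), limma-voom called 9 at day 9 (2 higher, 7 lower), no filter gave 5 lower at day 9 (3.68% of all genes), and a mean of at least 5 CPM gave 10 lower at day 13 (15.9%). Each day alone gave 35 (3 higher, 32 lower) and 4 (2 lower). Without both day 13 libraries that stand apart the counts were 31 (3 higher, 28 lower), 27 (5 higher, 22 lower) and, for the difference, 2 (2 lower). Leaving out 1 library at a time gave 2 to 17 calls at day 9 (1 to 2 higher, 1 to 15 lower), 4 to 28 at day 13 (2 to 8 higher, 2 to 26 lower) and 0 to 1 for the difference (0 to 1 lower). Under these fits 6.86% to 14.5%, 14.9% to 25.5% and 1.00% to 3.29% of all genes were called. At day 9 the total was 2 without siRNA replicate 2, 17 without day 13 control replicate 3 and 9 without day 13 siRNA replicate 2. At day 13 it was 5 without control replicate 2, 28 without control replicate 3 and 4 without siRNA replicate 3. The lower calls at day 13 numbered 2 without control replicate 1 or 2 or siRNA replicate 2 or 3, and the higher calls 4 without control replicate 1 and 8 without siRNA replicate 2. The cause of these shifts was not tested.

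Same-numbered libraries did not vary together (correlations of -0.11, -0.16 and 0.16 at day 9 and 0.08, -0.07 and -0.01 at day 13). A replicate block within each day gave 3 calls at day 9, 4 at day 13 (2 lower) and 0 for the difference, with 8.53%, 18.8% and 0.821% of all genes called.

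The Eif3m difference between days (-0.71, adjusted p = 0.0572) passed the threshold at a mean of at least 5 CPM (-0.74), without both day 13 libraries (-0.83) and, over the fits with 1 library left out, ranged from -0.83 (without day 13 control replicate 3, adjusted p = 0.0265) to -0.64. Uncalled values near 0 changed sign. The Ndufa3 difference (-0.01) was 0.00029 with DESeq2 size factors, 0.0095 with no filter, 0.00076 with DESeq2, 0.050 with thinned day 9 counts and 0.014 without both day 13 libraries. Uqcr10 at day 13 (0.04) was -0.016 with upper-quartile scaling and -0.056 without both day 13 libraries. Leaving out 1 library gave -0.20 to 0.19 for the Ndufa3 difference, -0.18 to 0.19 for Uqcr10 at day 13, and for other differences -0.12 to 0.25 (Uqcr10), -0.027 to 0.16 (Ndufaf4), -0.30 to 0.17 (Ndufa1), -0.32 to 0.058 (Ndufb3), -0.16 to 0.015 (Sdhd) and -1.44 to 0.35 (Cox7a1). With day 9 counts thinned Ndufaf1 and Ndufaf4 were called at day 9 as before.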

Other observations

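Levels of a few mitochondrial transcripts lay far apart between the day 9 and day 13 libraries. mt-Co2 was at 137 to 222 CPM in the 6 day 9 libraries and 2154 to 8669 CPM in the 6 day 13 libraries, and mt-Co3 at 104 to 350 and 1439 to 8143 CPM. mt-Nd6, the light-strand transcript, went the other way, at 88.1 to 105 CPM at day 9 and 7.67 to 19.5 CPM at day 13. mt-Co1 was at 14644 to 16072 and 11542 to 16626 CPM. Among the nuclear members Ndufa12 was at 24.5 to 30.6 CPM at day 9 and 6.39 to 13.6 CPM at day 13. Day and sequencing depth cannot be told apart, and these levels are given as values with no test between days.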
